A study of Homo sapiens with 29 samples.

Results

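The change in gene expression from 24 to 48 h was measured in LHCN-M2 cells that had been transfected with ZNF148 siRNA and kept in growth media. LHCN-M2 is a human myoblast line immortalized by telomerase and CDK4, and ZNF148 is a zinc finger transcription factor. The comparison rests on 6 of the 29 arrays of the series, 3 for each of these times, chosen by their labels, and covered 18398 genes. The question was which genes change as cells with less ZNF148 pass from proliferation into the muscle program without being given differentiation media.

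All groups used here received 20 nM siRNA in 6-well plates and stayed in growth media. Cultures were subconfluent when taken at 24 h and confluent when taken at 48 h. A further 6 arrays with nontargeting siRNA at the same 2 time points were the control for time and shared no array with the main comparison. A group at 96 h with ZNF148 siRNA (3 arrays, confluent) is set beside them. The siRNA pool and the single line limit what the groups stand for, since every culture came from 1 clone of immortalized cells. The labels call the arrays of a group biological replicates without naming separate cultures, so p-values measure the spread between these arrays.

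All 24 h arrays lay on 1 slide read in 1 scan, and the 48 h arrays lay on 3 other slides read in another scan. Slide, scan and confluence therefore cannot be told apart from time in the comparison of 48 with 24 h. The share of probes well above background was 41.5% to 44.9% on the 24 h knockdown arrays and 45% to 50.6% on the 48 h knockdown arrays, and no spot was saturated. Among the control arrays, nontargeting replicate 1 at 48 h stood apart. The median log2 signal of 196 muscle genes was 10.67 on that array, against 6.94 and 7.07 on the other control arrays at 48 h. The main counts and differences that rest on the control arrays at 48 h are given with and without it. Where only 1 value is given, it includes that array. The array took no part in the difference of means between the knockdown groups but widened their standard errors, which are shared by all groups of the fit. For MYH3 the standard error was 1.32 with that array and 0.298 without it, while the log2 change was 12.92.

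Skeletal myoblasts divide while growth factors are present and hold the muscle program in check. When they differentiate they leave the cell cycle, myogenin and MEF2 proteins switch on the genes of the contractile apparatus, and the cells fuse into multinucleate myotubes. MYOD1 and MYF5 mark the committed myoblast and act before myogenin. Much of the muscle program is reached through E-boxes, the short motif CANNTG bound by MYOD1 and myogenin, while many mitotic genes carry a CHR element (TTTGAA or TTCGAA) together with CCAAT boxes.

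The sequences upstream of 2 strongly induced and 2 strongly repressed genes are shown because they hold these motifs. They cover the 250 bases before the transcription start, are written 5′ to 3′ along the gene, and come from RefSeq with GRCh38.p14 coordinates. The arrays do not measure these regions. The pairs were picked as windows that hold the motif, out of the genes with the largest rises and the mitotic genes with the largest falls. MYBPH (chr1:203175827-203176076, minus strand) encodes myosin binding protein H, and ATP2A1 (chr16:28878238-28878487, plus strand) the calcium pump of fast muscle. Capitals mark E-boxes.
MYBPH: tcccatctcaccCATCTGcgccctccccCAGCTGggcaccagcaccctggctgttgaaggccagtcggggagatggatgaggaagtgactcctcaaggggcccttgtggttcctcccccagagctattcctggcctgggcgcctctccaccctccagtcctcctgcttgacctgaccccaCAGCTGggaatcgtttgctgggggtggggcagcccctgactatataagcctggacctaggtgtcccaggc
ATP2A1: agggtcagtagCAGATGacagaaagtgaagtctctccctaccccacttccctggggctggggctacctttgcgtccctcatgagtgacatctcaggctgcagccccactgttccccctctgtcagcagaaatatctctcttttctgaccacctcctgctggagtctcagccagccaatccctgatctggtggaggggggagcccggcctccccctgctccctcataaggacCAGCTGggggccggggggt
BUB1B (chr15:40160819-40161068, plus strand) encodes a checkpoint kinase of mitosis, and CENPA (chr2:26785806-26786055, plus strand) the histone variant of centromeres. Capitals mark TTTGAA or TTCGAA and CCAAT, the last written ATTGG where it lies on the other strand.
BUB1B: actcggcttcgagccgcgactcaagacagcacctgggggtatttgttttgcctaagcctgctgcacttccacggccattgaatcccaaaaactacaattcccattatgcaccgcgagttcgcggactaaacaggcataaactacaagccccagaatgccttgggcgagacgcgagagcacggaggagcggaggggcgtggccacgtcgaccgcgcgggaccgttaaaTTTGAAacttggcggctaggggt
CENPA: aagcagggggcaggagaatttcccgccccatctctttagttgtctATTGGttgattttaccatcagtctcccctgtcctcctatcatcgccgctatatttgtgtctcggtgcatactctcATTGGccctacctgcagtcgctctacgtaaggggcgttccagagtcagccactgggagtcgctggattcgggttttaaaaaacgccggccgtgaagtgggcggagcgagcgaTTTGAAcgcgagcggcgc

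Motifs were searched on both strands in the 250 bases of every promoter with an entry, and the CAGCTG count is part of the CANNTG count. An E-box lay in 77.1% of the promoters of muscle genes that rose (96 of 136 genes matched) and in 62.2% of all 27305 promoters. The form CAGCTG lay in 32.3% and 13.8% of them. TATAAA was found in 25% of the promoters of these muscle genes and in 11.1% of all promoters. For mitotic genes that fell (44 of 51 matched), a CHR element lay in 52.3% of promoters and CCAAT in 75%, against 14.6% and 33% of all promoters. Replication genes that fell (39 of 46 matched) held a CHR element in 7.69% and CCAAT in 53.8%. Among all genes tested, 57% of matched promoters held an E-box, 13.4% CAGCTG, 7.92% TATAAA, 11.3% a CHR element and 34.7% CCAAT. Among all genes that rose, 64.2% held an E-box and 18.1% CAGCTG. These shares are descriptions of the letters in each window and were not tested.

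ZNF148 itself was the first gene read. Its normalized log2 signal, a scale on which 1 unit is a 2-fold difference, was 7.09, 7.29 and 7.01 with ZNF148 siRNA at 24 h, and 6.91, 6.90 and 6.53 at 48 h. With nontargeting siRNA the 24 h arrays read 8.62, 8.67 and 8.68 and the 48 h arrays 8.51, 8.85 and 9.19. All 6 knockdown arrays lay below all 6 control arrays. Between 24 and 48 h of knockdown the log2 change was -0.35 ± 0.137 (SE, n = 3 and 3, adjusted p = 0.0323, limma), which was under the 2-fold required here to call a change.

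A gene was called changed when its adjusted p was under 0.05 and its signal moved by more than 2-fold. By this rule 2797 genes were higher at 48 h (15.2% of those tested) and 2888 were lower (15.7%). The median log2 change over all genes was -0.04. The rises reached further than the falls: 1217 genes rose and 1008 fell by more than 4-fold, 394 and 140 by more than 16-fold, and 170 and 3 by more than 64-fold. Signals below background entered these counts as read, so the folds of such genes are uncertain. Of the genes that rose, 953 (34.1%) were above background at 48 h only, and of those that fell, 329 (11.4%) at 24 h only. The arrays of the 2 time points did not overlap for 13226 genes (71.9%), so an absence of overlap alone says little about a gene. Among all genes tested, 753 were well above background on none of the 24 h and all of the 48 h arrays, and 173 the other way round. For such genes a fold is given as a bound, the bright group against the lowest signal counted as well above background. In RNA from whole cultures, fewer cells of a kind and less RNA per cell cannot be told apart.

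The muscle and cell cycle programs moved in opposite directions. Of 196 muscle genes tested, 136 rose and 9 fell, with a median log2 change of 2.92. At 24 h 57 of them were above background on no knockdown array. Medians of lists use such signals as read and not as bounds. Of 101 genes of DNA replication and mitosis, 97 fell and 0 rose, with a median of -3.72. Of 72 ribosomal protein genes and 74 nuclear genes of the respiratory chain, 0 passed in either direction, with medians of 0.01 and 0.16. At an unadjusted p under 0.05 in limma, with no fold limit, 14 ribosomal genes were higher and 14 lower, and 38 and 18 of the respiratory chain, and the methods' t-test also called 0 of them past 2-fold. The lists share libraries with the rest of the table and were written with earlier results of these data known, so their counts are descriptions beside the share of all genes.

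**Figure D1:**
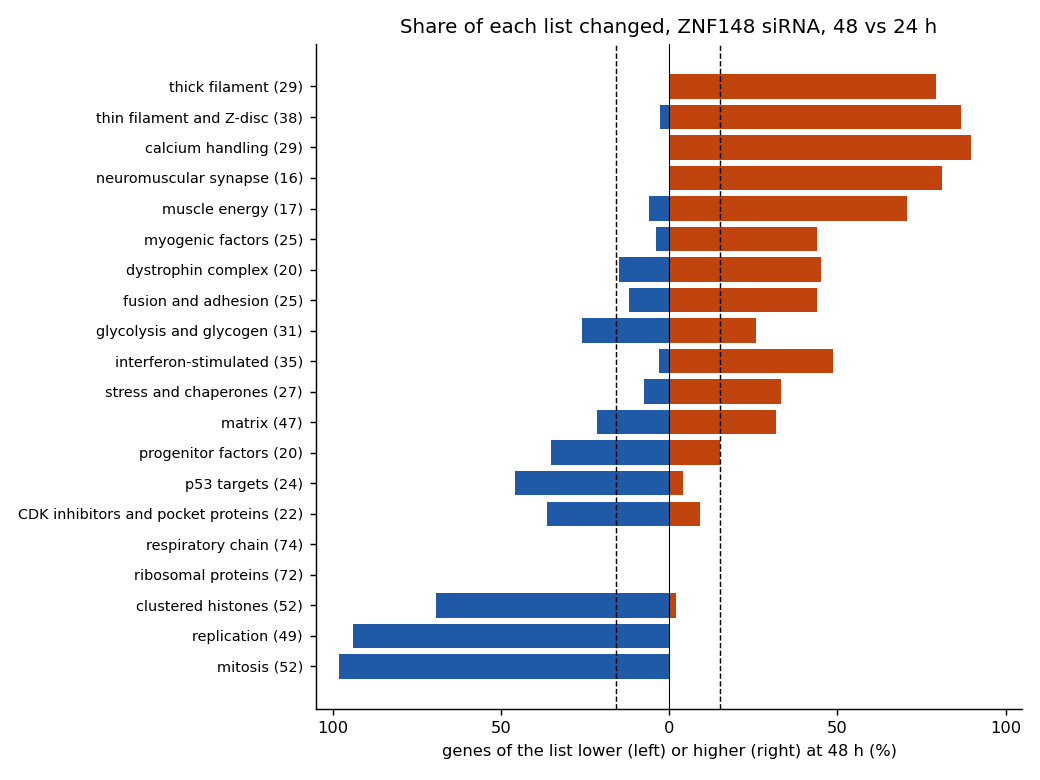
Share of the genes of each list (%) called higher (red, right) or lower (blue, left) at 48 h than at 24 h of ZNF148 siRNA, with the number of tested genes in brackets and dashed lines at the share of all genes (15.2% higher, 15.7% lower). Contractile, calcium and synapse lists lie to the right, mitosis, replication and histone lists to the left, and the ribosomal and respiratory chain lists have no bar.

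Among myogenic transcription factors and their partners, 11 of 25 rose and 1 fell. The early factor MYOD1 was already high at 24 h, with log2 signals of 16.78, 16.83 and 16.70, and read 17.00, 17.08 and 16.94 at 48 h. Its change of 0.24 ± 0.120 (SE) did not pass (adjusted p = 0.0975), although the arrays did not overlap. MYF5, the other early factor, fell from 13.31, 13.28 and 13.21 to 11.08, 11.21 and 10.79, a change of -2.24 ± 0.229 (adjusted p = 2.92e-08). MYF5 was the only member of the list that fell.

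MYOG, which encodes myogenin and drives terminal differentiation, was well above background on none of the 24 h arrays (5.12, 4.16 and 4.34) and on all 48 h arrays (10.91, 11.01 and 11.34). Its signal at 48 h was at least 68.5-fold higher (adjusted p = 7.52e-09). MEF2C, the partner of the myogenic factors in muscle promoters, rose from 9.25, 9.04 and 8.90 to 15.28, 15.15 and 15.18, a change of 6.14 ± 0.664 (adjusted p = 6.89e-08). The 48 h arrays of both genes lay far above all 24 h arrays. MEF2A rose by 2.82, and MEF2D had a change of 0.79 that was under 2-fold. SMYD1, a muscle methyltransferase needed for sarcomere assembly, was at least 470-fold higher at 48 h (adjusted p = 6.11e-10). The late factor MYF6 had a change of 0.98, just under the 2-fold limit.

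**Figure D2:**
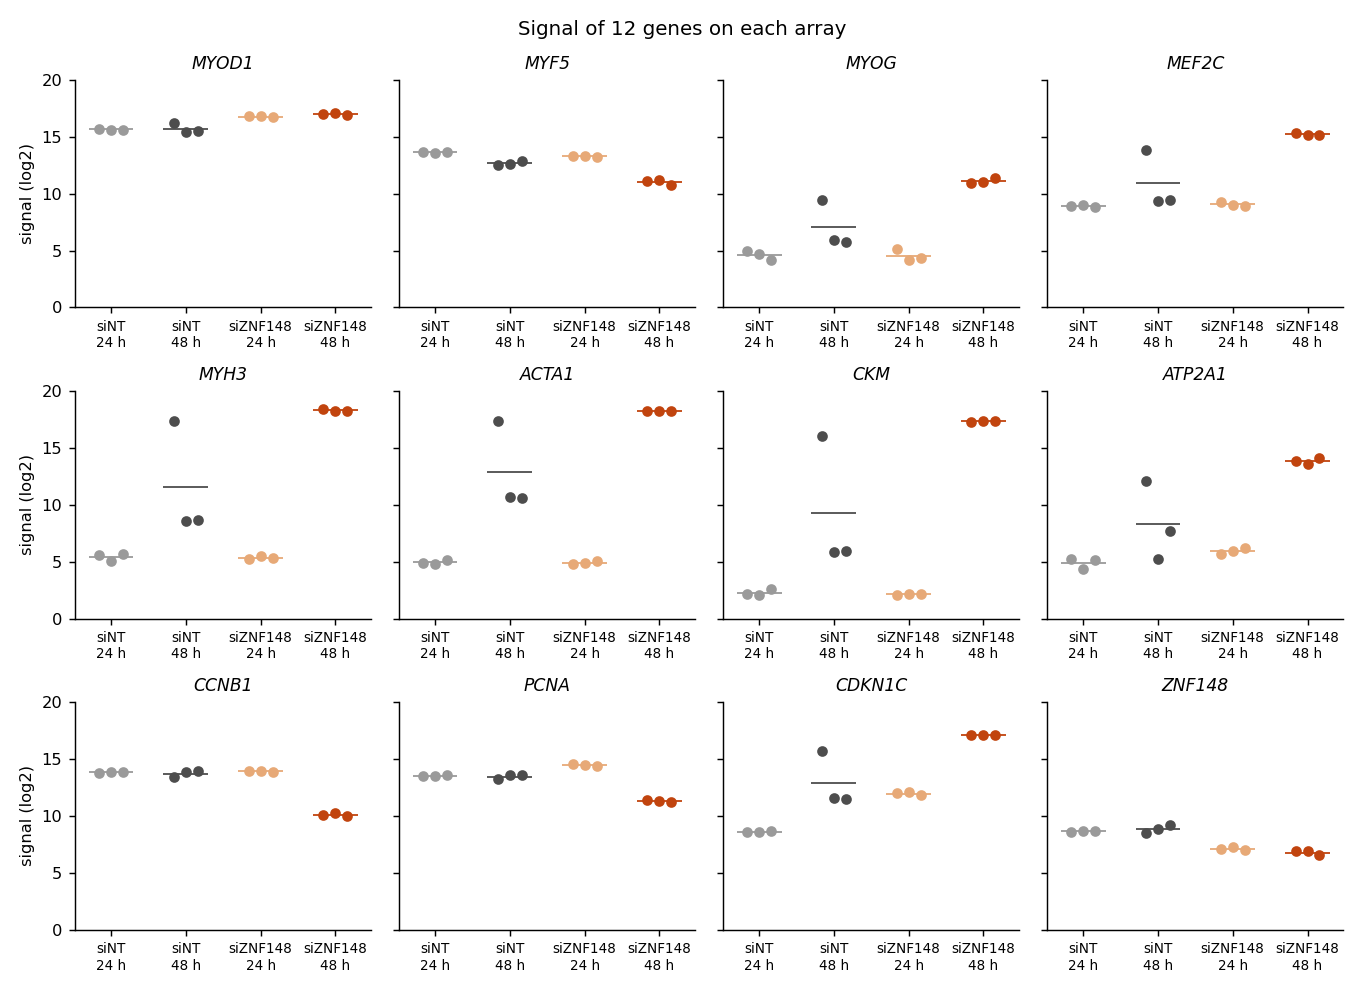
Normalized log2 signal of 12 genes on each array (points, 3 per group) with group means (lines), for nontargeting siRNA (siNT) and ZNF148 siRNA (siZNF148) at 24 and 48 h in growth media. The 3 knockdown arrays at 48 h lie close together, as MYH3 at 18.38, 18.21 and 18.26, while nontargeting replicate 1 at 48 h, the upper dark point, lies away from the other control arrays in the muscle genes.

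Genes of the thick filament, the myosin part of the sarcomere, rose in 23 of 29 cases and fell in 0, with a median log2 change of 6.91. Of these 29 genes 13 were above background on no knockdown array at 24 h, so the median rests in part on signals below background. Embryonic myosin heavy chain MYH3 had the largest rise of any gene well above background on all 6 arrays. Its signals were 5.24, 5.54 and 5.31 at 24 h and 18.38, 18.21 and 18.26 at 48 h, a change of 12.92 ± 1.32 (adjusted p = 3.12e-08). The perinatal heavy chain MYH8 was below background at 24 h (1.95, 1.96 and 1.96) and read 15.34, 15.37 and 15.37 at 48 h, at least 1360-fold higher. The slow heavy chain MYH7 was at least 2200-fold higher and the fast adult heavy chain MYH2 at least 88.1-fold higher. The heavy chains share long stretches of sequence, so signal between them may be split or shared by the probes.

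The light chains MYL1 and MYL4 were at least 1920-fold and 912-fold higher at 48 h. Titin, the spring that spans the sarcomere (TTN), rose by 8.60 ± 0.892, and MYBPH rose by 9.77 ± 0.896, from 8.90, 9.09 and 9.06 to 18.84, 18.79 and 18.73. MYOM3, a protein of the M-band, rose by 6.91, and the microtubule-associated ligase TRIM54 by 7.72 ± 0.858. UNC45B, the chaperone that folds myosin, was at least 195-fold higher. The muscle ubiquitin ligase TRIM63 rose by 7.44, with 1 of 3 arrays above background at 24 h. All of these passed the test, which was a condition of naming for those picked as largest changes. In none did the arrays of 24 and 48 h overlap, as held for 71.9% of all genes.

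Thin filament and Z-disc genes rose in 33 of 38 cases and 1 fell, with a median of 7.18. Here 12 genes were above background on no knockdown array at 24 h. Skeletal actin ACTA1 read 4.80, 4.87 and 5.10 at 24 h, above background on 1 of the 3 arrays, and 18.23, 18.19 and 18.23 at 48 h (13.29 ± 1.03, adjusted p = 4.53e-10). The troponins, the calcium switch of the thin filament, rose together: TNNC2 by 11.96 ± 1.38, TNNI2 by 9.95 ± 1.20 and the slow form TNNT1 by 7.39 ± 0.735. TNNT3, the fast troponin T, was at least 2670-fold higher. Nebulin (NEB) rose by 9.41, leiomodin LMOD2 was at least 141-fold higher, and the Z-disc proteins CSRP3, MYOZ2 and TCAP were at least 511-fold, at least 31.2-fold and 4.58 on the log2 scale higher. For NEB 1 of the 3 arrays was above background at 24 h.

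The one thin filament gene called lower was TPM3, and its probes split by transcript. Of 5041 genes with at least 2 tested probes, 50 (0.992%) had probes called in opposite directions. TPM3 encodes a tropomyosin with nonmuscle forms and a slow muscle form. On the brightest probe its signal fell from 15.77, 15.75 and 15.69 to 14.65, 14.48 and 14.43 (-1.22 ± 0.0945). The 3 other probes designed to that transcript changed by -1.60, -1.03 and -0.74, the last under 2-fold. Probes designed to 2 other RefSeq transcripts rose, by 4.48 ± 0.524 from 6.04, 5.83 and 6.10 to 10.37, 10.40 and 10.62, and by 2.15 ± 0.202. The probes of TPM1, chosen after their values were seen, differed too, though none fell past the threshold: 1 rose by 4.99 ± 0.522, from 12.37, 12.34 and 12.33 to 17.31, 17.37 and 17.34, and those for other transcripts changed by -0.34 and 0.04. For TPM2, chosen likewise, 1 probe fell by 1.64 on the log2 scale and the other had a change of 0.62. PDLIM7, a Z-disc and actin adaptor also chosen after its values were seen, rose by 2.73 on 1 probe and fell by 2.12 and 2.44 on the 2 probes of another transcript.

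**Figure D3:**
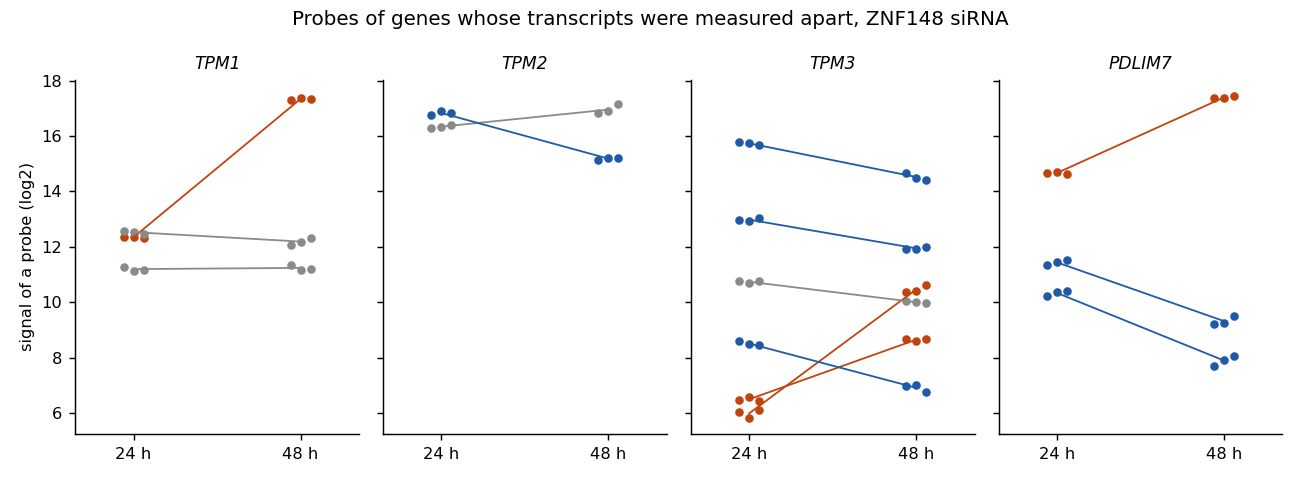
Log2 signal of each tested probe of TPM1, TPM2, TPM3 and PDLIM7 on the 3 arrays of ZNF148 siRNA at 24 h and at 48 h (points), with lines joining group means, in red for probes called higher, blue for lower and grey for neither. Within TPM3 and PDLIM7 red and blue lines cross or diverge, with TPM3 probes changing from -1.60 to 4.48.

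Excitation-contraction coupling links the nerve signal to calcium release from the sarcoplasmic reticulum. Of 29 genes of this list 26 rose and 0 fell (median 6.21), and KCNQ5 (-0.63), RYR3 and ASPH (-0.33) did not pass. At 24 h 13 of the 29 were above background on no knockdown array. Of the 5 calcium channel subunits listed, CACNG1 and CACNA1S were well above background on no array at 24 h. CACNG1 read 2.22, 2.26 and 3.06 at 24 h and 15.76, 15.90 and 15.93 at 48 h, at least 1930-fold higher, and CACNA1S was at least 21.8-fold higher. STAC3, which couples that sensor to the release channel, was measured on all arrays and rose by 5.46 ± 0.528. The release channel RYR1 rose by 7.56 ± 0.789, with signals of 3.80, 5.77 and 3.14 and then 11.67, 11.70 and 12.03, the first set with 1 array above background.

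Calcium is pumped back by SERCA proteins. ATP2A1 rose from 5.68, 5.96 and 6.20 to 13.82, 13.59 and 14.07 (7.88 ± 0.921, adjusted p = 2.13e-07), and the more widely used pump ATP2A2 rose to 13.21, 13.24 and 13.30 (2.57 ± 0.247). Sarcolipin (SLN), a small inhibitor of these pumps, was at least 266-fold higher, and the calcium store protein CASQ2 at least 295-fold. SRL, a sarcoplasmic reticulum glycoprotein, was at least 864-fold higher, and CACNG6, another channel subunit, rose by 8.33 ± 0.864. The sodium channel gene SCN4A was above background on no array at 24 h and on all at 48 h (4.92, 5.50 and 5.78), a bound of only 1.37-fold.

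Of 16 genes of the acetylcholine receptor and the muscle synapse 13 rose and 0 fell (median 3.08). The fetal receptor subunit CHRNG was at least 39.4-fold higher, read at 4.72, 4.07 and 4.63 and then 10.18, 10.27 and 10.30. The adult subunit CHRNE had a change of 0.71 and its arrays overlapped. CHRND rose by 5.41, from 1 array above background at 24 h, CHRNA1 by 1.48 ± 0.110, the clustering protein RAPSN by 1.69 and the receptor kinase MUSK by 1.17. AGRN (0.81) and UTRN (0.63), given for completeness after their values were seen, did not pass either.

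Of 25 adhesion and fusion genes 11 were higher and 3 lower (44% and 12%, against 15.2% and 15.7% of all genes). M-cadherin (CDH15) rose from 14.31, 14.45 and 14.37 to 16.22, 16.14 and 16.13 (1.79 ± 0.295), while N-cadherin (CDH2) fell from 12.78, 12.78 and 12.79 to 11.15, 11.13 and 11.04 (-1.68 ± 0.117). CDH4 fell to below background, at least 5.89-fold, and DOCK5, an exchange factor, fell by 2.30 on the log2 scale, with 1 array above background at 48 h. With normexp, another background correction, the change of DOCK5 was -0.90 and did not pass. ITGA7, the laminin receptor of myotubes, rose by 2.94 ± 0.136, CAV3 by 2.87 and DYSF by 2.34. Myomaker (MYMK) encodes the membrane protein that starts fusion, and its 2 probes, designed to the same transcript, disagreed. The brighter one had a change of 0.89 ± 0.0854, under 2-fold, and the other rose from 6.24, 5.91 and 6.27 to 13.02, 13.11 and 13.47 (7.06 ± 0.670).

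The dystrophin-glycoprotein complex ties the cytoskeleton to the matrix. Of its 20 genes 9 were higher and 3 lower (45% and 15%, against 15.2% and 15.7% of all genes). DMD rose by 1.89, DAG1 by 2.35 and SGCA by 1.80 ± 0.129. SNTB2, a syntrophin, fell by 1.34 on the log2 scale. DTNB was below background on all 6 arrays and is given without a fold. Outside the list, DES, the intermediate filament of muscle, rose from 13.99, 14.44 and 14.44 to 18.33, 18.40 and 18.40.

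In the list of phosphotransfer and oxygen supply 12 of 17 genes rose and 1 fell (median 6.54). CKM, muscle creatine kinase, had the largest bound of all genes: 2.10, 2.12 and 2.14 at 24 h and 17.27, 17.31 and 17.37 at 48 h, at least 5290-fold higher (adjusted p = 2.25e-08). Myoglobin (MB) was at least 29-fold higher, AMPD1 at least 77.8-fold, the mitochondrial kinase CKMT2 at least 13.6-fold, and the brain form CKB rose by 6.58 ± 0.619. SMPX, a small muscle protein, was at least 1360-fold higher. COX6A2, the muscle form of a cytochrome oxidase subunit, was above background on 2 arrays at 24 h and rose by 10.52, while the 74 respiratory chain genes ranged from -0.69 to 0.92. AMPD3, the deaminase of other tissues, fell by 1.79 on the log2 scale.

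Glycolysis and glycogen enzymes split, with 8 of 31 higher and 8 lower (25.8% each, against 15.2% and 15.7% of all genes). The enolases exchanged: ENO3, the muscle enzyme, rose from between 9.88 and 10 to 17.45, 17.57 and 17.48 (7.54 ± 0.939), and ENO1 fell from 16.39, 16.41 and 16.53 to 14.35, 14.32 and 14.48 (-2.06 ± 0.0937). Neither gene's arrays overlapped. PGAM2, above background on 2 arrays at 24 h, rose by 6.52 and the muscle phosphorylase PYGM was at least 53.2-fold higher. PFKP, the platelet phosphofructokinase, fell by 2.54 on the log2 scale and LDHA by 1.03, whereas the muscle form PFKM had a change of 0.93, under 2-fold.

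The cell cycle genes fell almost as a block. Of 49 replication genes 46 fell (median -3.12), and POLA1 (-0.20), UHRF1 (0.10) and E2F8 (0.90) did not pass. The change of UHRF1 was -0.08 with arrays scaled to their 75th percentile. PCNA, the clamp of the replication fork, read 14.56, 14.46 and 14.38 at 24 h and 11.41, 11.30 and 11.22 at 48 h (-3.16 ± 0.0824, adjusted p = 3.9e-17). RRM2, the regulated subunit of ribonucleotide reductase, fell by 5.12 on the log2 scale, TYMS by 3.72, MCM2 by 2.83 and the regulator E2F1 by 3.35. CCNE2, a G1/S cyclin, fell by 4.45. MCM10 and CDC6, both needed to load or start the helicase, fell below background, at least 31.7-fold and 7.25-fold lower. Outside the list, the checkpoint and origin genes CLSPN and TICRR were at least 26.1-fold and 24.6-fold lower, and RAD54L, a recombination motor, fell by 4.85 ± 0.283.

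Of 52 genes of G2 and M phase 51 fell (median -4.05), and CDC25B (-0.94) missed the fold limit. The mitotic cyclin CCNB1 fell from 13.98, 13.97 and 13.85 to 10.10, 10.22 and 9.96 (-3.84 ± 0.119, adjusted p = 3.7e-16), and CCNA2 fell by 4.27 and the kinase CDK1 by 3.92 on the log2 scale. The transcription factors of this phase fell as well, FOXM1 by 4.44 and MYBL2 by 3.20. BUB1B read 12.31, 12.35 and 12.27 at 24 h and 7.58, 7.78 and 7.40 at 48 h (-4.73 ± 0.549), and CENPA 10.34, 10.31 and 10.01 and then 5.89, 5.77 and 5.36 (-4.55 ± 0.372). The kinetochore protein NUF2 fell by 4.79, the kinase AURKB by 4.55, MKI67 by 3.75, TOP2A by 4.05, UBE2C by 4.24 and CDC20 by 4.41. NCAPG, a condensin subunit outside the list, was at least 28-fold lower. Among the 101 genes of both lists, the arrays of the 2 times did not overlap for 100, against 71.9% of all genes.

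Histone genes of the chromosome 6 clusters, which are transcribed in S phase, fell in 36 of 52 cases and rose in 1 (median -2.11). All 12 H2A and all 11 H4 genes tested fell, as did 8 of 10 H3 and 4 of 6 H1 genes, but only 1 of 13 H2B genes did, H2BC6 with a change of -3.50. H2AC13 fell from 8.73, 8.66 and 8.96 to below background, at least 23.0-fold lower (adjusted p = 3.56e-15). H3C1 was the one that rose, from 12.27, 12.28 and 12.32 to 13.43, 13.50 and 13.38 (1.15 ± 0.0635). Scaled to the 75th percentile of each array, its change was 0.94 and under 2-fold. Several of these genes are near-identical copies, and probes may read more than 1 of them, so single members are uncertain.

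**Figure D4:**
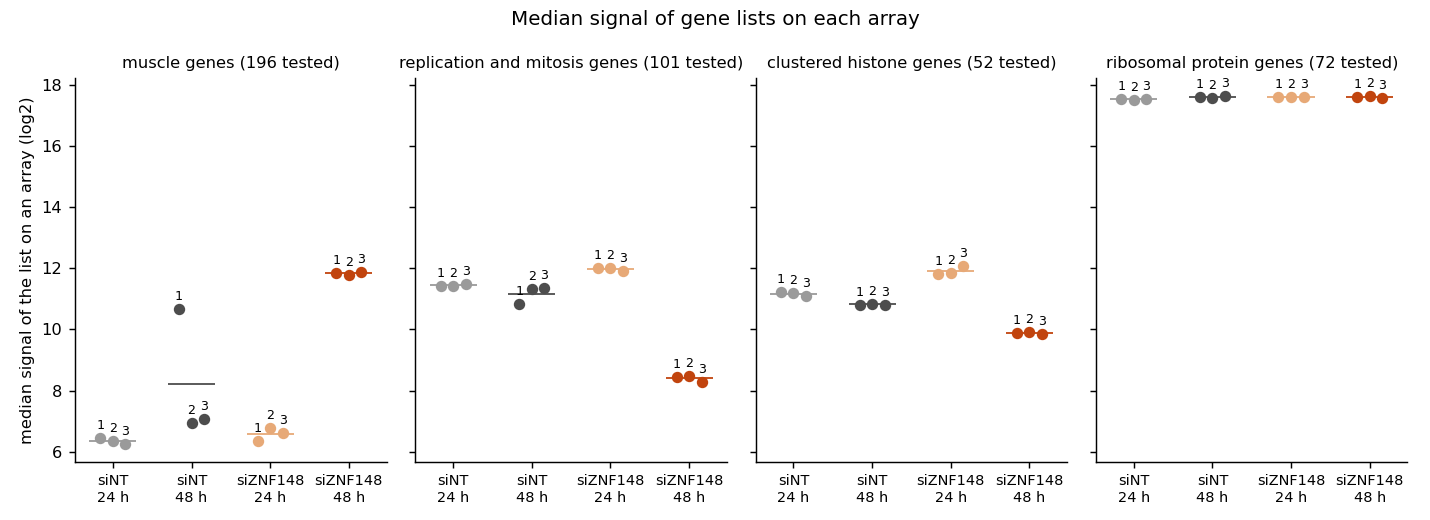
Median log2 signal on each array (points labelled with the replicate number, lines at group means) of the muscle genes, the replication and mitosis genes, the clustered histone genes and the ribosomal protein genes, for nontargeting siRNA (siNT) and ZNF148 siRNA (siZNF148) at 24 and 48 h. The knockdown arrays at 48 h lie above all others for muscle genes and below all others for cell cycle and histone genes, nontargeting replicate 1 at 48 h reads 10.67 for muscle genes, and the ribosomal medians stay close together.

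Among the inhibitors and partners of cyclin-dependent kinases 2 of 22 rose and 8 fell (9.09% and 36.4%, against 15.2% and 15.7% of all genes). CDKN1C, which encodes the inhibitor p57, rose from 11.99, 12.11 and 11.79 to 17.11, 17.08 and 17.07 (5.12 ± 0.641, adjusted p = 5.58e-07), and GADD45G, a growth arrest gene, by 4.08 ± 0.346. The inhibitors p21 (CDKN1A, 0.36) and p27 (CDKN1B, 0.30) stayed under 2-fold, and CDKN2C fell by 1.01. CCND1 fell by 1.22 on the log2 scale. CDK4, which the line also carries as a transgene, had a log2 change of -1.19 and passed. Of the pocket proteins RBL1 fell by 2.69, and RB1 (0.67) and RBL2 (-0.28) did not pass.

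Among progenitor factors and inhibitors of differentiation 3 of 20 rose and 7 fell (15% and 35%, against 15.2% and 15.7% of all genes). ID1, which binds and blocks partners of MYOD1, fell from 14.52, 14.53 and 14.47 to 11.08, 11.07 and 10.97 (-3.46 ± 0.105), and ID3 fell by 1.79. ID2 had a change of -0.37 and MSC of 0.29. TWIST1 (-2.01) and SNAI2 (-2.25), mesenchymal factors named after their values were seen, also fell. SNAI1 went the other way, from below background (4.44, 4.18 and 4.19) to 9.21, 9.12 and 9.28, at least 19.1-fold higher. SPRY1, a brake on growth factor signaling, rose by 1.56. In the controls ID1 and ID3 changed by -1.84 and -2.65, or by -1.71 and -2.95 without nontargeting replicate 1 at 48 h. ID3 thus fell further in the controls than in the knockdown.

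Signaling lists held changes in both directions, as did all genes tested (15.2% higher and 15.7% lower). The shares were 25% and 20% for Notch. For Notch, which keeps progenitors undifferentiated, 5 of 20 genes rose and 4 fell: the receptor NOTCH3 rose by 1.83 ± 0.353, NOTCH2 fell by 1.16, the ligand DLL3 fell by 3.36 with 1 array above background at 48 h, and the changes of the ligands DLL1 (0.75) and JAG1 (-0.65) were under 2-fold. JAG2 fell by 1.28 on its brightest probe, while another probe designed to the same transcript rose by 1.04 and a probe for another transcript by 4.98. For TGF-beta, BMP and myostatin 8 of 35 rose and 4 fell (22.9% and 11.4%), not far from the shares of all genes. The ligand TGFB2 rose by 1.56, and the BMP antagonists NOG and GREM1 fell by 1.89 and 1.14. LTBP1, which stores TGF-beta in the matrix, fell by 2.94. Myostatin (MSTN), the muscle growth inhibitor, was above background at 48 h only, at least 1.49-fold higher. The activin inhibitor FST had a change of 0.90.

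Of 19 genes of the insulin-like growth factors 6 rose and 4 fell (31.6% and 21.1%, against 15.2% and 15.7% of all genes). IGF2, an autocrine factor of differentiating myoblasts, rose from 15.55, 15.67 and 15.50 to 18.63, 18.63 and 18.67 (3.07 ± 0.251, adjusted p = 1.05e-09), and its neighbour H19, a noncoding RNA, rose by 1.57 ± 0.0910. The binding proteins went in both directions: IGFBP3 rose by 4.38 and IGFBP5 was at least 20.6-fold higher, while IGFBP4, IGFBP6 and IGFBP1 fell by 1.52, 1.34 and 1.13. The last did not pass with arrays scaled to their 75th percentile (-0.80), with normexp (-0.54) or without 24 h knockdown replicate 2 (-0.98). The adaptor IRS2 fell by 2.36.

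Targets of YAP and of serum response also divided, with 8 of 29 higher and 6 lower (27.6% and 20.7%, against 15.2% and 15.7% of all genes). FOSL1 fell from 10.94, 10.98 and 10.93 to 7.13, 7.36 and 7.49 (-3.62 ± 0.175), AXL by 2.59 and CCN2 by 1.12, whereas EGR1, an immediate early factor, rose by 3.49 ± 0.162. MYC had a change of -0.84, under 2-fold. Of the smooth muscle genes 6 of 17 rose and 3 fell (35.3% and 17.6%). ACTA2, an actin that early myotubes also make, rose by 2.84 and TAGLN by 1.36, while ACTG2, enteric actin, fell from between 12 and 12.04 to 7.58, 7.30 and 7.39 (-4.60 ± 0.153) and MYLK by 2.33.

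Matrix genes were split as well, with 15 of 47 higher and 10 lower (31.9% and 21.3%, against 15.2% and 15.7% of all genes). The collagens COL1A1, COL1A2 and COL5A1 rose by 1.08, 1.01 and 2.13, and POSTN by 1.59. The first 2 of these lay at the fold limit, with 0.91 and 0.86 when arrays were scaled to their 75th percentile. MMP3, a stromelysin, had the largest fall of genes above background on all 6 arrays, from 13.92, 13.94 and 13.96 to 8.03, 8.05 and 7.80 (-5.98 ± 0.146, adjusted p = 2.6e-17). The collagenase MMP1 fell by 3.31, MMP2 by 1.25, tenascin TNC by 3.04 and the crosslinking enzyme LOX by 2.54. MMP3 also fell in the controls, with a change of -3.90, or -3.71 without nontargeting replicate 1 at 48 h.

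Interferon-stimulated genes rose in 17 of 35 cases and 1 fell (48.6% and 2.86%, against 15.2% and 15.7% of all genes), with a median of 1.00. MX1, an antiviral GTPase, rose from 6.57, 6.41 and 6.87 to 9.74, 9.61 and 9.68 (3.06 ± 0.281), and ISG15 by 2.30 ± 0.215. IFI44L was the one that fell, by 1.31. At 96 h, read against the same 48 h arrays, 34 of the 35 were higher and the median change was 3.58.

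In the stress list 9 of 27 genes rose and 2 fell (33.3% and 7.41%, against 15.2% and 15.7% of all genes). Small heat shock proteins were 6 of the 9: HSPB3 rose by 6.23, HSPB2 by 4.70, CRYAB by 3.99 and HSPB7 by 3.52. The chaperone HSPA5 (-0.83) and the unfolded protein response factor DDIT3 (0.93) were under 2-fold, and HSPA1B fell by 1.62 and HMOX1 by 1.18. Of 24 p53 target genes 11 fell and 1 rose (45.8% and 4.17%, against 15.7% and 15.2% of all genes). MDM2 fell by 1.11 and PMAIP1 rose by 1.37. Of 34 sterol and fatty acid synthesis genes 4 rose and 3 fell, a share below that of all genes in both directions, with INSIG1 falling by 2.01.

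Some of the largest changes belonged to genes on none of the lists. FOLR1, a folate receptor, rose from 6.23, 6.22 and 6.15 to 15.60, 15.59 and 15.71 (9.43 ± 1.02, adjusted p = 6.85e-08), and TSPAN33, a tetraspanin, from 5.80, 5.95 and 6.04 to 13.60, 13.59 and 13.84 (7.75 ± 0.845). CAVIN4, the muscle cavin of caveolae, rose by 7.54 ± 0.788. PACSIN1, an endocytic adaptor best known from neurons, was at least 854-fold higher. All 4 were picked as largest changes among genes that passed, so passing was a condition of naming them.

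Among the falls, CRYBG1 went from 11.16, 11.29 and 11.28 to 5.80, 6.08 and 5.83 (-5.34 ± 0.194). AOX1, an aldehyde oxidase, fell by 5.10 on the log2 scale. Falls followed for FAM111B (-5.02), TMEFF2 (-4.98), the EGF receptor ligand AREG (-4.82), the G-protein regulator RGS20 (-4.74) and the somatostatin receptor SSTR1 (-4.72). Receptors were also among those that fell below background. KDR, the VEGF receptor of endothelium, read 9.59, 9.54 and 9.61 at 24 h and 3.36, 3.80 and 3.01 at 48 h, at least 39.9-fold lower (adjusted p = 8.95e-13). The dopamine receptor DRD2 was at least 34.1-fold lower, the retinol carrier RBP4 26.4-fold and the glycosyltransferase GCNT1 21.5-fold.

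The labelled cell type was checked with markers. All 9 markers of skeletal muscle cells were tested, 7 rose and 1, MYF5, fell, and their summed linear signal went from between 160000 and 172000 at 24 h to between 1350000 and 1370000 at 48 h. Of 8 cardiac markers 6 rose, among them TNNT2 (7.45, named after its value was seen), which developing skeletal muscle also makes. Of 8 leukocyte markers 4 rose and 1 fell, and their summed signal was 1140 to 1220 at 24 h and 847 to 967 at 48 h. Fibroblast markers rose in 3 of 8 cases (COL1A1, COL1A2 and LUM, the last named after its value was seen, 1.89) and THY1 fell by 2.95, with summed signals of 139000 to 144000 and then 218000 to 225000. Endothelial markers rose in 2 and fell in 3 of 8, neuronal markers in 2 and 2 of 8, and adipocyte markers fell in 1 of 6. These counts stand beside 15.2% of all genes higher and 15.7% lower. A part of other cells in the results was not tested.

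**Figure D5:**
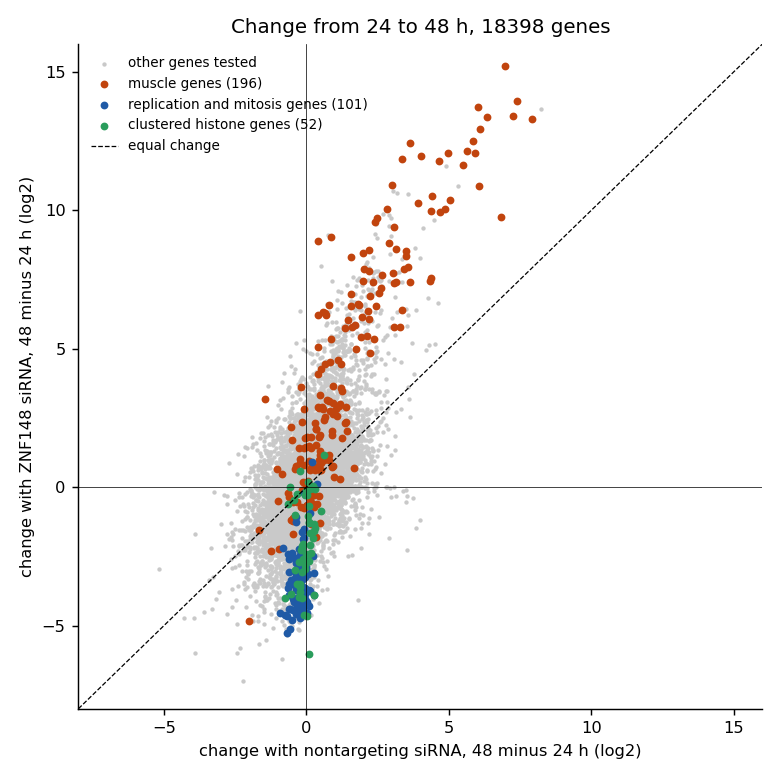
Log2 change from 24 to 48 h of each of 18398 genes with nontargeting siRNA (x axis) and with ZNF148 siRNA (y axis), with muscle genes in red, replication and mitosis genes in blue, clustered histone genes in green, all others in grey and a dashed line at equal change. Most muscle genes lie above the line, and most cell cycle and histone genes lie below 0 on the y axis and near 0 on the x axis.

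Cells with nontargeting siRNA passed through the same 24 h, the same slides and the same scans. There 1077 genes rose (5.85%) and 655 fell (3.56%), or 923 and 676 without nontargeting replicate 1 at 48 h, and the arrays of the 2 times did not overlap for 9637 genes (52.4%). Of the genes that rose with ZNF148 siRNA, 737 rose there too, which is 26.3% of the knockdown list and 68.4% of the nontargeting list. Of those that fell, 406 were shared, 14.1% and 62% of the lists. Across genes, which are not independent replicates, the changes of both siRNAs had a Pearson r of 0.615 and a Spearman rho of 0.56. These values rested in part on the control array that stood apart. Without it 530 genes rose in both (18.9% and 57.4% of the lists), 334 fell in both (11.6% and 49.4%), r was 0.352 and rho 0.38.

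The difference between the changes was tested in the same fit. It was higher with ZNF148 siRNA for 1888 genes (10.3%) and lower for 1907 (10.4%), and without nontargeting replicate 1 at 48 h for 2159 and 2209. Of the 2797 genes that rose in the knockdown 1625 (58.1%) also passed this test, as did 1674 (58%) of the 2888 that fell, on the same knockdown arrays. With nontargeting siRNA 67 of the 196 muscle genes rose and 4 fell (median 0.83), and the difference was higher for 130 of them and lower for 5 (median 2.37). Without nontargeting replicate 1 at 48 h these counts were 45 and 11 (median 0.26) for nontargeting siRNA and 137 and 7 (median 2.97) for the difference. With nontargeting siRNA 0 of the 101 replication and mitosis genes passed in limma (median -0.23, or -0.07 without replicate 1). At an unadjusted p under 0.05, with no fold limit, 33 were lower there and 1 higher. The difference was lower for 96 of them with or without that array. Of the histone genes 0 passed with nontargeting siRNA (8 higher and 10 lower at an unadjusted p under 0.05), and the difference was lower for 37 of 52, again with or without it. The starting levels also differed. At 24 h, on arrays shared with these comparisons, 15 of 52 histone genes and 13 of 101 replication and mitosis genes were higher with ZNF148 siRNA than with nontargeting siRNA (median differences 0.75 and 0.60), and 1 and 0 were lower, against 2.46% of all genes higher and 3.08% lower. At 48 h the median levels of the knockdown lay below those of the controls, 9.92 against 10.77 for histone genes and 8.40 against 11.16 for replication and mitosis genes. For interferon-stimulated genes the difference was higher for 16 of 35, and for 15 without nontargeting replicate 1 at 48 h. These genes started lower: at 24 h 6 of the 35 were lower and 1 higher with ZNF148 siRNA than with nontargeting siRNA (median difference -0.48). Their median level with ZNF148 siRNA was 7.99 against 8.57 in controls at 24 h, and 9.21 against 8.97 at 48 h.

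Single genes show the range. MYH3 changed by 6.10 with nontargeting siRNA, from 5.61, 5.07 and 5.63 (2 arrays above background) to 17.35, 8.55 and 8.70, so that the difference was 6.82 (adjusted p = 0.00631), and 9.73 without replicate 1. Without replicate 1 the nontargeting change of MYH3 was 3.19. In a fit of the 12 arrays of these 4 groups alone, the adjusted p of the MYH3 difference was 0.0887 and it did not pass. MEF2C changed by 1.96 there and its difference was 4.18 (adjusted p = 0.00124). Without replicate 1 the nontargeting change of MEF2C was 0.50 and was not called, and the difference was 5.65. CCNB1 read 13.80, 13.84 and 13.85 and then 13.37, 13.84 and 13.94 with nontargeting siRNA, and its difference was -3.73 (adjusted p = 1.17e-12), or -3.90 without replicate 1. PCNA had a difference of -3.09 (adjusted p = 2.03e-13), or -3.21 without it. CDKN1C rose by 4.30 with nontargeting siRNA as well, from 8.56, 8.61 and 8.64 to 15.70, 11.56 and 11.44. Without replicate 1 that rise was 2.90. The CDKN1C difference of 0.83 did not pass (adjusted p = 0.55), but without replicate 1 it was 2.22 and passed (adjusted p = 2.51e-07). MYBPH had a difference of 2.94 that did not pass (adjusted p = 0.08), and without replicate 1 it was 4.90 (adjusted p = 3.05e-10). H19 rose by 1.59 with nontargeting siRNA, and its difference was -0.02 (adjusted p = 0.931), or 0.10 without replicate 1 (adjusted p = 0.515). LUM, COL1A2, PMAIP1, TAGLN, IRS2 and INSIG1 had nontargeting changes of 1.61, 0.94, 1.22, 1.11, -1.80 and -1.52. Without replicate 1 these were 1.60, 0.94, 0.89, 1.11, -1.70 and -1.74. Their differences were 0.28, 0.06, 0.15, 0.25, -0.57 and -0.48, all under 2-fold. Leaving out replicate 1 gave differences of 0.29, 0.06, 0.47, 0.25, -0.66 and -0.27.

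At 48 h each of the 3 slides held 1 array of either siRNA. The median of knockdown minus nontargeting log2 signals within a slide was 1.28, 3.31 and 3.14 over muscle genes, the first on the slide with nontargeting replicate 1. It was -2.28, -2.95 and -2.81 over replication and mitosis genes and -1.26, -1.51 and -1.45 over histone genes. The median over all genes lay between -0.07 and 0. The directions held on every slide, and at 24 h all arrays of both siRNAs lay on the same slide.

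Some genes changed in opposite directions. With ZNF148 siRNA 31 genes rose that fell with nontargeting siRNA, and 23 fell that rose. Without nontargeting replicate 1 at 48 h these counts were 108 and 32. LIMCH1, an actomyosin regulator, rose from 8.53, 8.58 and 8.59 to 10.54, 10.65 and 10.40 in the knockdown, and with nontargeting siRNA went from 8.11, 8.27 and 8.07 to 8.07, 5.39 and 6.24 (difference 3.55, adjusted p = 1.13e-05, and 4.30 without replicate 1). The nuclear receptor NR2E3 rose by 2.52 and changed by -1.37 in controls, or by -2.04 without replicate 1. Its difference was 3.90 (adjusted p = 7.92e-06), and 4.57 without replicate 1. The amino acid transporter gene SLC7A14 fell from 6.95, 6.93 and 6.97 to below background, at least 6.45-fold, and rose from 7.16, 7.07 and 7.57 to 8.65, 9.25 and 9.32 in controls (adjusted p of the difference 5.31e-10, and 2.48e-10 without replicate 1). TLR2, an innate immune receptor, was above background on 2 arrays at 24 h, fell at least 1.89-fold and rose by 2.89 in controls (adjusted p of the difference 2.25e-09, and 1.09e-09 without replicate 1). SERPINB3 and NTNG1 were above background on only 1 knockdown array at 24 h and on none at 48 h, so no fold is given for their knockdown change. They rose in controls by 3.52 and 1.59, and the adjusted p of the difference was 9.87e-09 and 9.59e-08 (4.61e-09 and 4.35e-08 without replicate 1). With normexp the knockdown changes of TLR2, SERPINB3 and NTNG1 were -0.50, -0.42 and -0.46, under 2-fold, so that their falls were not called. SERPINB4, COX8C, SLC22A13 and LOC100506207 met the same rule with signals at or near background in the knockdown, and no fold is given for them.

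From 48 to 96 h of ZNF148 siRNA far fewer genes moved, 760 upward (4.13%) and 335 downward (1.82%). That comparison shares the 48 h arrays with the main one, so the values stand side by side. Of the 196 muscle genes 5 rose and 0 fell (median 0.05), and the median level of the list was 6.58, 11.79 and 11.68 at the successive times. Of the 52 mitotic genes 32 fell further (median -1.32), CDK1 by 1.61 and TOP2A by 1.76, while 2 of the 49 replication genes fell. MMP3 fell further by 2.13, and FOSL1 and ACTG2, which had fallen by 48 h, rose by 1.34 and 4.46.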

How the data were processed

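LHCN-M2 cells were profiled on Agilent SurePrint G3 1-colour arrays. The deposited scanner files give the intensity of each spot after background subtraction by Feature Extraction 10.7.3.1, per the file headers. The authors also deposited a log2 matrix, quantile normalized in Partek, which was used as an alternative. Well-above-background flags are other values of the deposited scanner files. A genome build (hg19) is named in 14 of the 29 headers.

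Control and outlier spots were dropped, spots of a probe averaged, log2 intensities quantile normalized over 29 arrays, and 38714 probes kept, flagged well above background on 2 arrays or more, and tested with limma 3.58.1 in R 4.3.3 (10 group means, 19 residual degrees of freedom, Benjamini-Hochberg adjustment, two-sided). Quantile normalization removes any shift common to all genes. A gene is its brightest tested probe, named through RefSeq accessions, which named 31104 probes. The methods' t-test, with its 2-fold limit, was run as an alternative. The number of arrays limits the precision. The fit was tested on simulated data.

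Named genes are the 12 largest rises and falls, the 10 largest bounds each way, genes picked from each of 33 lists, members against their list's majority, up to 5 genes each way with opposite changes in both siRNAs, and ZNF148. Others are marked in the text or complete a small count. The largest rises, falls and bounds were taken only from genes that passed, and the rises and falls only from those without overlap. The comparison and the lists were chosen with earlier results of these data known. Alternatives covered normalization, background, filter, fit, variance, weights, blocks, left-out arrays, fold limit and probe choice. Protein sequences were not used here.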

Additional observations from a re-analysis of the deposited data

Results flagged for a closer look

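The change from 24 to 48 h was compared between ZNF148 siRNA and nontargeting siRNA by the test of the difference itself. It was higher with ZNF148 siRNA for 1888 genes and lower for 1907 (10.3% and 10.4% of those tested). Of 196 muscle genes it was higher for 130 and lower for 5, and of 35 interferon-stimulated genes higher for 16. It was lower for 96 of 101 replication and mitosis genes and for 37 of 52 clustered histone genes. Starting levels differed too. At 24 h the median log2 difference of ZNF148 siRNA from nontargeting siRNA was 0.60 for replication and mitosis, 0.75 for histone and -0.48 for interferon-stimulated genes. Of single genes described, the difference of the log2 changes was 6.82 for MYH3 (not called in a fit of 12 arrays alone, adjusted p = 0.0887, limma), 4.18 for MEF2C, 3.90 for NR2E3 and 3.55 for LIMCH1, and it was -3.73 for CCNB1 and -3.09 for PCNA. SLC7A14 fell from above background on all knockdown arrays to above background on none and rose in the controls, with an adjusted p of the difference (limma) of 5.31e-10. For TLR2, SERPINB3 and NTNG1, above background on 2, 1 and 1 knockdown arrays at 24 h and on none at 48 h, the adjusted p of the difference was 2.25e-09, 9.87e-09 and 9.59e-08, and their knockdown changes were under 2-fold with normexp. Without nontargeting replicate 1 at 48 h the difference was called for 2159 genes in the higher and 2209 in the lower direction, and was 9.73 for MYH3 and 5.65 for MEF2C.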

How the results depend on the processing

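The counts of changed genes depended most on the background correction and the fold limit. With normexp 5263 probes, 1612 higher and 1831 lower genes changed in the knockdown and 421 and 163 with nontargeting siRNA, while 129 muscle and 97 cell cycle genes still passed. Without a fold limit 22707 probes passed, with 5644 and 6707 genes in the knockdown, 3278 and 4344 with nontargeting siRNA and 3941 and 4467 for the difference. Leaving out 1 array at a time gave 11111 to 11908 probes, 2664 to 2902 higher and 2824 to 2895 lower genes, 136 to 138 muscle and 97 cell cycle genes, 870 to 1282 and 630 to 676 genes with nontargeting siRNA, 1703 to 2159 and 1767 to 2209 for the difference, and -0.42 to -0.23 for ZNF148. The methods' t-test gave 10609 probes at its threshold and 10015 after Benjamini-Hochberg adjustment. Correlations of same-numbered deviations were 0.0549, 0.00668 and 0.144 in the knockdown. So few arrays cannot decide whether replicate numbers pair them. The titles, whose numbers were used, and the sample descriptions number the 48 h knockdown arrays differently. The fit with the replicate block gave 2785 higher and 2886 lower genes. With slide as a random block they were 2753 and 2861, and with slide as a fixed block, chosen after seeing the data, the difference passed for 1895 and 1924 genes. Of 209 genes named for the knockdown, 184 kept their direction and call under every alternative in which they were scored. Single genes were not scored under the methods' t-test or without a fold limit, and the fixed slide block covered only the difference. With the probes of a gene averaged the change was 0.34 for TPM3, 1.58 for JAG2, -0.61 for PDLIM7 and -0.51 for TPM2, and MYMK passed at 3.97 while MDM2 (-0.96) and NOTCH2 (-0.70) did not. Scaling to the 75th percentile gave -0.08 for UHRF1, -0.80 for IGFBP1 and -0.18 for ZNF148 (adjusted p = 0.244), and brought MYC (-1.06), HSPA5 (-1.04), CDC25B (-1.15) and CHRNE (1.17) past 2-fold. Normexp put DOCK5 (-0.90), IGFBP1 (-0.54), MSTN (0.50), SCN4A (0.88), NTNG1 (-0.46), SERPINB3 (-0.42), TLR2 (-0.50) and CDKN2C (-0.96) under 2-fold, and the cause was not tested. Fitting 12 arrays alone, the difference of MYH3 was 6.82 with an adjusted p of 0.0887 and COL1A1 had 0.0566. The difference of H19 was 0.03 under 75th percentile scaling and under normexp, 0.05 with array weights and with averaged probes, and between -0.11 and 0.10 when arrays were left out. Genes near the scanner's background are limited by signal, and the causes of these shifts were not tested.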
